A study of Mus musculus with 7 samples.

Results

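Choroid plexus epithelial genes were examined in RNA from bead-enriched hippocampal microglia. The 35 genes were chosen by symbol from a list of transcripts typical of this epithelium, and all 35 had a row in the deposited table of 55401 genes. The libraries came from C57BL/6 mice of 6 to 8 weeks, described as male, whose dorsal dentate gyrus had received AAV-RAM-Cre. That virus expresses Cre from RAM, an activity-dependent promoter, so that the neurons engaged by an experience (engram neurons) carry the recombinase. Both groups also received a Cre-dependent virus: AAV-Dio-EYFP, a fluorescent protein, in 4 libraries (EYFP 1 to 4), and AAV-Dio-Atg7-Flag, a tagged autophagy gene, in 3 (ATG7 1 to 3). Both vectors act in engram neurons, while the RNA came from the cells that CD11b beads held back after enzymatic dissociation of hippocampi. The labels do not say whether a library is 1 mouse or a pool, so p-values measure the spread between libraries only.

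The choroid plexus is a fold of vascular tissue in the brain ventricles, and it lies against the hippocampus in the lateral ventricle. Its epithelial cells secrete cerebrospinal fluid by moving ions and water across a sheet sealed by tight junctions. They also release carrier proteins and growth factors into that fluid, most of all transthyretin, the product of Ttr. The labels do not mention the choroid plexus.

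Total counts ranged from 35934210 to 55217119 per library. Microglial markers were abundant, and all 10 on a list (among them Cx3cr1, P2ry12, Tmem119, Csf1r, C1qa, Aif1, Itgam, Sall1 and Siglech) were detected in every library. Of the sex-linked genes, Xist, which is transcribed from an inactive X chromosome, was at 938 CPM (counts scaled to library size) in EYFP 3 and at no more than 0.573 CPM elsewhere. The Y-linked gene Ddx3y was lower there but not absent, at 27.6 CPM against 121 to 169 CPM, as were Eif2s3y at 13.3, Kdm5d at 8.09 and Uty at 7.38 CPM. The Xist level goes against the description as male for EYFP 3, and the labels do not say whether that library holds more than 1 mouse. The summed share, the medians of both choroid plexus lists and the numbers of their genes that passed are also given without it.

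Together the 35 genes took 6.43%, 8.26%, 6.47% and 7.72% of all counts in EYFP 1 to 4, against 6.98%, 5.35% and 6.09% in ATG7 1 to 3. EYFP 2 and EYFP 4 were the highest, ATG7 1 came next, and EYFP 1 and EYFP 3 lay between ATG7 1 and ATG7 3, so the groups overlapped. The group means were 7.22% ± 0.919 for EYFP (SD, n = 4) against 6.14% ± 0.816 for ATG7 (SD, n = 3), and the EYFP mean was 7.47% without EYFP 3. The 10 microglial markers took between 2.11% and 2.56% of the counts. The lists differ in number and choice of genes, so these shares do not compare the amounts of choroid plexus and microglial RNA.

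Most of this share came from a pair of secreted proteins. Ttr made up between 53.5% and 59.2% of the counts of the 35 genes, and Enpp2, which encodes autotaxin, the enzyme that makes lysophosphatidic acid, between 24.6% and 28.2%. The remaining 33 genes took 1.31% ± 0.198 for EYFP (SD, n = 4) against 1.06% ± 0.110 for ATG7 (SD, n = 3). The ratio of Enpp2 counts to Ttr counts was 0.495, 0.527, 0.494 and 0.517 in EYFP and 0.506, 0.502 and 0.415 in ATG7. ATG7 3 was the library with relatively little Enpp2 for its Ttr, and the other 6 lay close together.

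**Figure D1:**
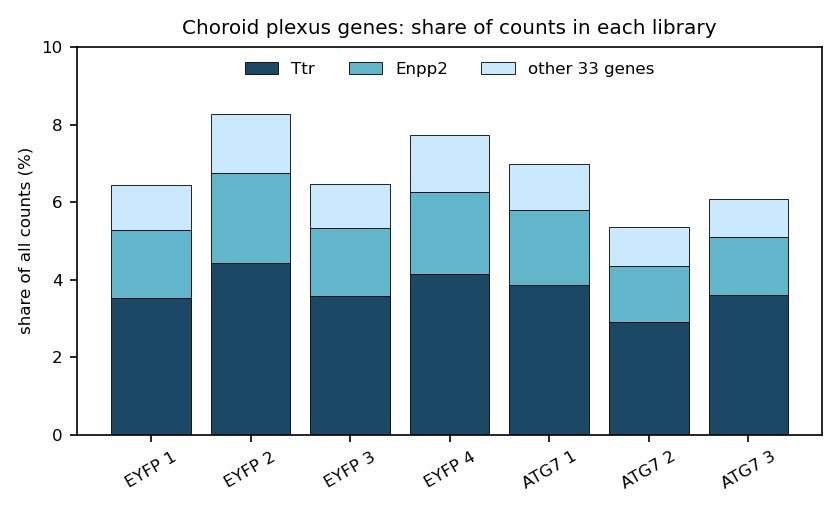
Share of all counts (%) taken by Ttr, Enpp2 and the other 33 choroid plexus genes in each library, as stacked bars. EYFP 2 has the highest total, 8.26%, and ATG7 2 the lowest, 5.35%, with the groups overlapping.

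Levels of different genes were compared per kilobase of merged exons. On this scale Ttr was the most abundant of all genes in the table, at 31325 CPM per kilobase over the 7 libraries. Of the microglial markers, the complement gene C1qa was at 1902 CPM per kilobase. Csf1r, the receptor for colony-stimulating factor, was at 1135 and the chemokine receptor gene Cx3cr1 at 788 CPM per kilobase. Each of these markers was below Ttr in every library. Enpp2 was at 3182 and had rank 4. Below them came 1500015O10Rik, the gene of the secreted peptide precursor augurin, at 521, the growth factor-binding protein gene Igfbp2 at 346, and Clic6, of the chloride intracellular channel family, at 247 CPM per kilobase. In all, 10 genes were at or above 100 CPM per kilobase, 21 lay from 20 to under 100, and 4 lay below 20. Those 4 were Cldn1 (19.6), Sfrp5 (15.1), Cldn3 (6.82) and Igf2 (6.09 CPM per kilobase). The Igf2 value is uncertain, since 3596 of its 5723 exon bases are shared with another gene and the handling of shared reads is not given. Even the least abundant by counts, Cldn3, had at least 270 counts in every library, far above a floor of 3 counts.

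**Figure D2:**
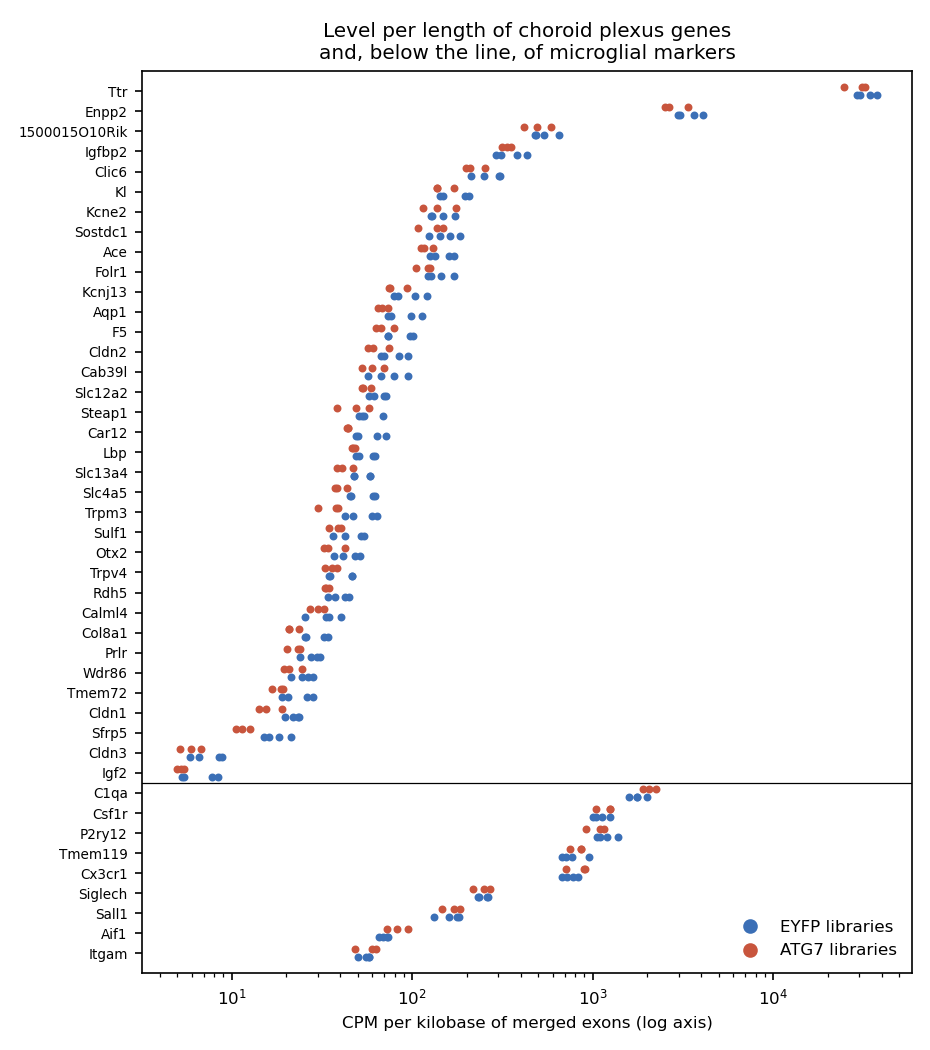
Level of each choroid plexus gene (above the line) and of 9 microglial markers (below it), as CPM per kilobase of merged exons on a log axis, with 1 point per library. The 35 genes span from 6.09 (Igf2) to 31325 (Ttr), and the spread between libraries is small beside the differences between genes.

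The comparison of ATG7 with EYFP asks whether these transcripts differ when engram neurons overexpress Atg7. Every one of the 35 genes had a fitted log2 fold change below 0, as did 50.8% of all 19199 genes tested, and 1 gene passed, Sfrp5, in a two-sided quasi-likelihood test of edgeR at an adjusted p (Benjamini-Hochberg) under 0.05. Of all genes tested, 0.755% passed, 0.0677% as lower and 0.688% as higher. The median log2 fold change of the 35 genes was -0.28, against -0.00365 for all genes tested, and it was -0.33 without EYFP 3, where 1 gene passed, again Sfrp5. An unadjusted p under 0.05 was found for 17 of the 35, and for 12% of all genes tested. By the Wald test of DESeq2, 6 of the 35 passed, and 585 of all 19199 genes tested did (407 higher, 178 lower). All 35 passed the filter on low counts. In bulk RNA, fewer cells of a type and less RNA per cell cannot be told apart.

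**Figure D3:**
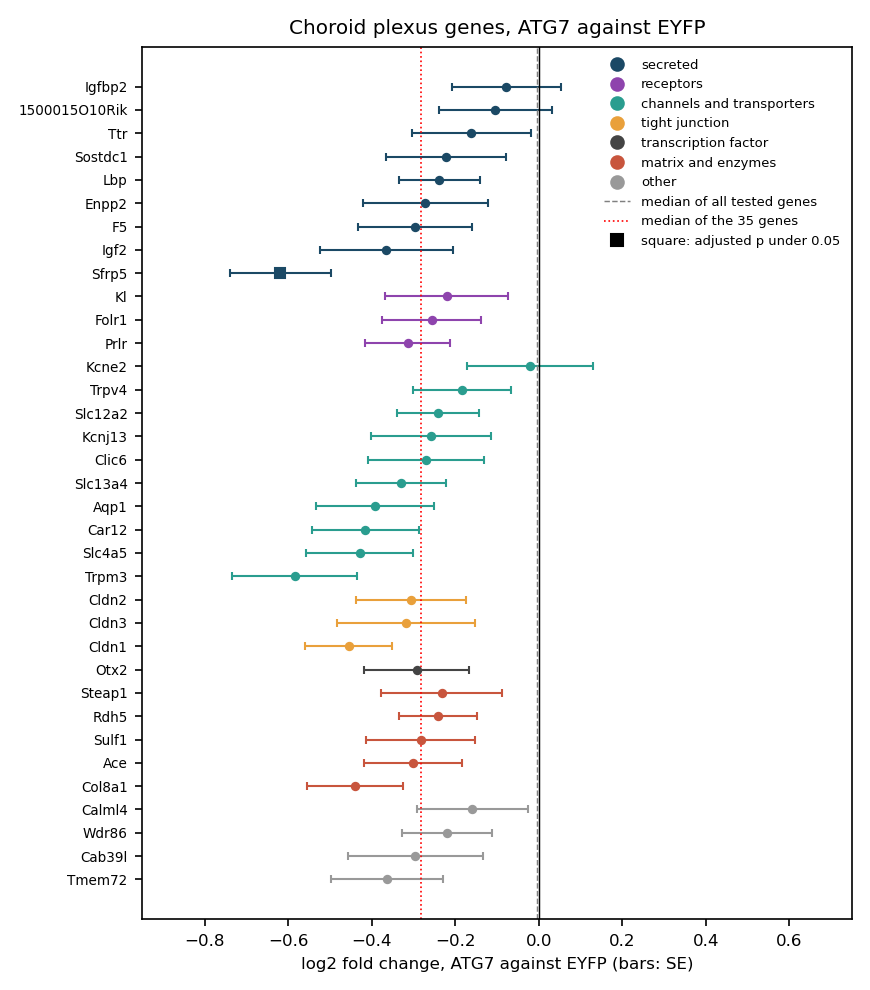
Log2 fold change of ATG7 against EYFP for the 35 genes, grouped and coloured by role, with standard errors as bars. All points lie below 0, and the square marks Sfrp5, the gene that passed at an adjusted p of 0.0465.

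The 9 secreted proteins had a median log2 fold change of -0.24, and 1 of them, Sfrp5, passed (0.755% of all genes tested). Ttr encodes the protein that carries thyroid hormone and, with retinol-binding protein, vitamin A. Its level was 34656, 44573, 35699.8 and 40769 CPM in EYFP 1 to 4, against 38357, 29079 and 36925 CPM in ATG7 1 to 3. EYFP 2 was highest, ATG7 2 lowest, and ATG7 1 and ATG7 3 lay inside the range of EYFP. The log2 fold change was -0.16 ± 0.143 (standard error, SE), at an adjusted p of 0.724 by edgeR. Enpp2 (ENSMUSG00000022425, chromosome 15, 54838901 to 54952892 in GRCm38) was at 17172, 23511, 17621 and 21089.6 CPM in EYFP, against 19397, 14601 and 15319.7 CPM in ATG7. The groups again overlapped, and the log2 fold change was -0.27 ± 0.150 (SE), at an adjusted p of 0.526 by edgeR. A non-coding gene on the opposite strand, Gm26684, shares exon bases with Enpp2, and the strand setting is not given in the sources used here.

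Sfrp5 encodes a secreted frizzled-related protein, an inhibitor of Wnt signalling. The gene (ENSMUSG00000018822, chromosome 19, 42197971 to 42202252 in GRCm38, minus strand) was at 28.7, 40.7, 30.6 and 34.9 CPM in EYFP, against 20.2, 21.5 and 24.1 CPM in ATG7. All 3 ATG7 libraries lay below all 4 EYFP libraries, with group means of 33.7 ± 5.34 CPM for EYFP (SD, n = 4) against 21.9 ± 1.99 CPM for ATG7 (SD, n = 3). Sfrp5 fell by 0.62 on the log2 scale (SE 0.121), at an adjusted p of 0.0465 by edgeR. Without EYFP 3 it still passed (adjusted p = 0.0482, edgeR). It no longer passed without EYFP 2 (edgeR adjusted p = 0.0568), EYFP 4 (0.143), ATG7 1 (0.146), ATG7 2 (0.198) or ATG7 3 (0.128). Across the 16 settings the adjusted p of Sfrp5 ranged from 0.000408 to 0.293, and its log2 fold change from -0.70 to -0.52.

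The exon-free stretch just upstream of its start is shown because Sfrp5 was the gene that passed (RefSeq, GRCm38.p6, chr19:42202253-42202502, minus strand, 250 bases, no capitals because the motif described later is absent).
Sfrp5 upstream: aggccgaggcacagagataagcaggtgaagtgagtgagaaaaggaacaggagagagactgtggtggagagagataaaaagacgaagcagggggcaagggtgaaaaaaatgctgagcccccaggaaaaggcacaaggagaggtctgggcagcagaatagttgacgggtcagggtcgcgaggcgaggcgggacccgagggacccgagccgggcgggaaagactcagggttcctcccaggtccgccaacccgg

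The other secreted proteins did not pass. Igfbp2, which binds insulin-like growth factors, was at 571, 798, 539 and 705 CPM in EYFP, against 653, 584 and 619 CPM in ATG7, and the ATG7 libraries lay inside the range of EYFP (log2 fold change -0.08, edgeR adjusted p = 0.873). Igfbp2 was lowest in EYFP 3, and without it the log2 fold change was -0.17 (edgeR adjusted p = 0.663). The coagulation factor V gene, F5, was at 545, 747, 543 and 722 CPM in EYFP, against 592, 498 and 470.3 CPM in ATG7, with ATG7 1 above EYFP 1 and EYFP 3. Its log2 fold change was -0.30 ± 0.136 (SE), at an adjusted p of 0.422 by edgeR. Lbp, the gene of a protein that binds bacterial lipopolysaccharide, had non-overlapping groups, with means of 269 ± 32.7 CPM for EYFP (SD, n = 4) against 228 ± 4.36 CPM for ATG7 (SD, n = 3) and an adjusted p of 0.354. The growth factor gene Igf2 had means of 38.6 ± 9.14 CPM for EYFP (SD, n = 4) against 29.9 ± 1.30 CPM for ATG7 (SD, n = 3), and 1500015O10Rik of 485 ± 69.8 CPM for EYFP (SD, n = 4) against 451 ± 78.6 CPM for ATG7 (SD, n = 3). Sostdc1, whose product antagonises BMP and Wnt ligands, had means of 272 ± 46.4 CPM for EYFP (SD, n = 4) against 233 ± 36.7 CPM for ATG7 (SD, n = 3). For these 3 the groups overlapped.

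The 3 receptor genes had a median log2 fold change of -0.26, and in each the groups overlapped. With edgeR 0 of them passed, as with DESeq2, and 1 had an unadjusted p under 0.05 (12% of all genes tested). Kl encodes klotho, a co-receptor for the hormone FGF23, and was at 1376, 1923, 1330.3 and 1823 CPM in EYFP 1 to 4, against 1590.5, 1274 and 1288 CPM in ATG7 1 to 3. EYFP 2 and EYFP 4 stood above ATG7 1, which stood above the other 4 libraries, a pattern like that of the summed share. The log2 fold change of Kl was -0.22 ± 0.147 (SE), at an adjusted p of 0.617 by edgeR. Folr1, the folate receptor that brings folate into the fluid, had means of 323 ± 49.4 CPM for EYFP (SD, n = 4) against 271 ± 24.8 CPM for ATG7 (SD, n = 3), with an adjusted p of 0.428. The prolactin receptor gene Prlr had means of 429 ± 45.6 CPM for EYFP (SD, n = 4) against 345 ± 29.9 CPM for ATG7 (SD, n = 3) and was highest in EYFP 3, unlike most of the other genes (edgeR adjusted p = 0.236). Without EYFP 3 its log2 fold change was -0.27 instead of -0.31 (edgeR adjusted p = 0.344).

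The 10 transport genes (channels, transporters and a carbonic anhydrase) move ions and water across the epithelium, and their median log2 fold change was -0.30. With edgeR 0 of them passed, and 6 had an unadjusted p under 0.05 (12% of all genes tested). DESeq2 passed 3 (585 of all 19199 genes tested). Trpm3, a cation channel gene that neurons also use, had the lowest fold change of these. It was at 1154, 1472, 1039 and 1551 CPM in EYFP, against 949, 921 and 737 CPM in ATG7, with every ATG7 library below every EYFP library. The log2 fold change of Trpm3 was -0.59 ± 0.150 (SE), at an adjusted p of 0.128 by edgeR, and by the DESeq2 Wald test it passed (adjusted p = 0.00485). Over the 16 settings this adjusted p ranged from 0.00485 to 0.486. Clic6 was at 826, 1194, 976 and 1180.0 CPM in EYFP, against 995, 779 and 823 CPM in ATG7, with overlapping groups (log2 fold change -0.27, edgeR adjusted p = 0.490). Slc12a2, the sodium, potassium and chloride cotransporter of the apical membrane, was at 674, 786, 632 and 758 CPM in EYFP, against 649, 574 and 585 CPM in ATG7. ATG7 1 alone lay inside the range of EYFP, above EYFP 3 (log2 fold change -0.24, edgeR adjusted p = 0.357).

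Groups did not overlap for 4 more transport genes, all lower in ATG7 (4.91% of all genes tested lay wholly below). Aqp1, the water channel of the apical membrane, had means of 237 ± 49.0 CPM for EYFP (SD, n = 4) against 181 ± 11.1 CPM for ATG7 (SD, n = 3). The bicarbonate cotransporter gene Slc4a5 had means of 310.2 ± 54.6 CPM for EYFP (SD, n = 4) against 230.3 ± 19.3 CPM for ATG7 (SD, n = 3), and the sulfate cotransporter gene Slc13a4 of 239 ± 28.7 CPM for EYFP (SD, n = 4) against 191 ± 20.7 CPM for ATG7 (SD, n = 3). Car12, a membrane carbonic anhydrase, had means of 446 ± 83.2 CPM for EYFP (SD, n = 4) against 334 ± 1.78 CPM for ATG7 (SD, n = 3). Their edgeR adjusted p was 0.286, 0.192, 0.240 and 0.211, and DESeq2 passed Slc4a5 and Car12 (adjusted p = 0.0428 and 0.0466). Over the settings run the adjusted p ranged from 0.0428 to 0.761 for Slc4a5 and from 0.0466 to 0.760 for Car12. The potassium channel gene Kcnj13 and the osmosensitive cation channel gene Trpv4 overlapped between groups. Kcnj13 had means of 123 ± 23.7 CPM for EYFP (SD, n = 4) against 103 ± 13.4 CPM for ATG7 (SD, n = 3), and Trpv4 of 165 ± 26.8 CPM for EYFP (SD, n = 4) against 146 ± 10.8 CPM for ATG7 (SD, n = 3). Kcne2, a potassium channel subunit, had nearly equal means, 255 ± 37.6 CPM for EYFP (SD, n = 4) against 251 ± 55.1 CPM for ATG7 (SD, n = 3), and a log2 fold change of -0.02 ± 0.151 (SE), at an adjusted p of 0.976 by edgeR. ATG7 1 had the highest Kcne2 of all 7 libraries and ATG7 2 the lowest.

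The 3 claudin genes encode proteins of tight junctions, and their median log2 fold change was -0.32. With edgeR 0 of them passed, and 2 had an unadjusted p under 0.05 (12% of all genes tested). DESeq2 passed 1, Cldn1 (585 of all 19199 genes tested). Cldn2, whose product forms a cation-permeable pore, was the most abundant of them per length, at 72.7 CPM per kilobase, above Cldn1 at 19.6 and Cldn3 at 6.82. Cldn1 was at 95.2, 115, 113 and 106 CPM in EYFP, against 91.4, 68.7 and 74.6 CPM in ATG7, with ATG7 1 just below EYFP 1 and no overlap between the groups. The log2 fold change of Cldn1 was -0.46 ± 0.105 (SE), at an adjusted p of 0.0860 by edgeR, and over the 16 settings its adjusted p ranged from 0.00543 to 0.543. It passed with DESeq2, with no filter on low counts, and without EYFP 1 or ATG7 1. Cldn2 and Cldn3 overlapped between groups, with log2 fold changes of -0.31 and -0.32 (edgeR adjusted p = 0.390 and 0.496).

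Otx2, the homeobox transcription factor that the epithelium needs for its formation and upkeep, had means of 188 ± 27.4 CPM for EYFP (SD, n = 4) against 153 ± 21.9 CPM for ATG7 (SD, n = 3) (log2 fold change -0.29, edgeR adjusted p = 0.386). The 5 matrix genes and enzymes had a median log2 fold change of -0.28, and 3 had an unadjusted p under 0.05 (12% of all genes tested). With edgeR 0 of these 5 passed, and DESeq2 passed 1, Col8a1 (585 of all 19199 genes tested). Ace, the angiotensin-converting enzyme, was at 659.9, 905, 709 and 842 CPM in EYFP 1 to 4, against 688, 616 and 591 CPM in ATG7 1 to 3. ATG7 1 lay above EYFP 1, and the other ATG7 libraries lay below all of EYFP (log2 fold change -0.30, edgeR adjusted p = 0.335). The heparan sulfatase gene Sulf1 was at 482, 611, 414 and 584 CPM in EYFP, against 457, 438 and 393 CPM in ATG7, with overlap (log2 fold change -0.28, edgeR adjusted p = 0.426). Col8a1, a collagen gene, did not overlap between the groups, with means of 231 ± 35.8 CPM for EYFP (SD, n = 4) against 170.3 ± 11.99 CPM for ATG7 (SD, n = 3) and an edgeR adjusted p of 0.139. It passed with DESeq2 and with no filter, and its adjusted p ranged from 0.0158 to 0.688 over the settings. The retinol dehydrogenase gene Rdh5 had means of 111 ± 13.4 CPM for EYFP (SD, n = 4) against 94.2 ± 2.47 CPM for ATG7 (SD, n = 3), and the metalloreductase family gene Steap1 of 77.9 ± 11.7 CPM for EYFP (SD, n = 4) against 66.4 ± 13.2 CPM for ATG7 (SD, n = 3), both with overlap.

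The last 4 genes also overlapped between groups. Their median log2 fold change was -0.26, 1 had an unadjusted p under 0.05 (12% of all genes tested), and 0 passed with edgeR or DESeq2. Calml4, a calmodulin-like gene, had means of 121 ± 22.0 CPM for EYFP (SD, n = 4) against 109 ± 9.90 CPM for ATG7 (SD, n = 3), and the transmembrane protein gene Tmem72 of 403 ± 75.3 CPM for EYFP (SD, n = 4) against 313 ± 24.0 CPM for ATG7 (SD, n = 3). Wdr86, of the WD-repeat family, had means of 126 ± 15.0 CPM for EYFP (SD, n = 4) against 108 ± 13.03 CPM for ATG7 (SD, n = 3), and Cab39l, a scaffold of kinases that regulate ion transport, of 509 ± 111 CPM for EYFP (SD, n = 4) against 415 ± 56.3 CPM for ATG7 (SD, n = 3). In all, the ATG7 libraries lay wholly below EYFP for 9 of the 35 genes (Lbp, Sfrp5, Aqp1, Slc4a5, Slc13a4, Trpm3, Car12, Cldn1 and Col8a1) and wholly above for none. Of all genes tested, 4.91% lay wholly below and 6.33% wholly above, 11.2% together. Without EYFP 3 the groups lay apart for 12 of the 35, all lower, and 7.61% of all genes tested were then wholly below.

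The 35 genes varied together over the libraries. EYFP 2 held the highest value of 30 genes and EYFP 4 of 3, while ATG7 2 held the lowest of 19 and ATG7 3 of 12. The exceptions at the top were Prlr (EYFP 3) and Kcne2 (ATG7 1). Every gene was above its own mean CPM in EYFP 2 and EYFP 4, and every gene was below it in ATG7 2 and ATG7 3. The highest library exceeded the lowest by between 1.34-fold and 2.10-fold, with a median of 1.59-fold. EYFP 1 and EYFP 3 were below the mean CPM for 31 and 27 of the genes.

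**Figure D4:**
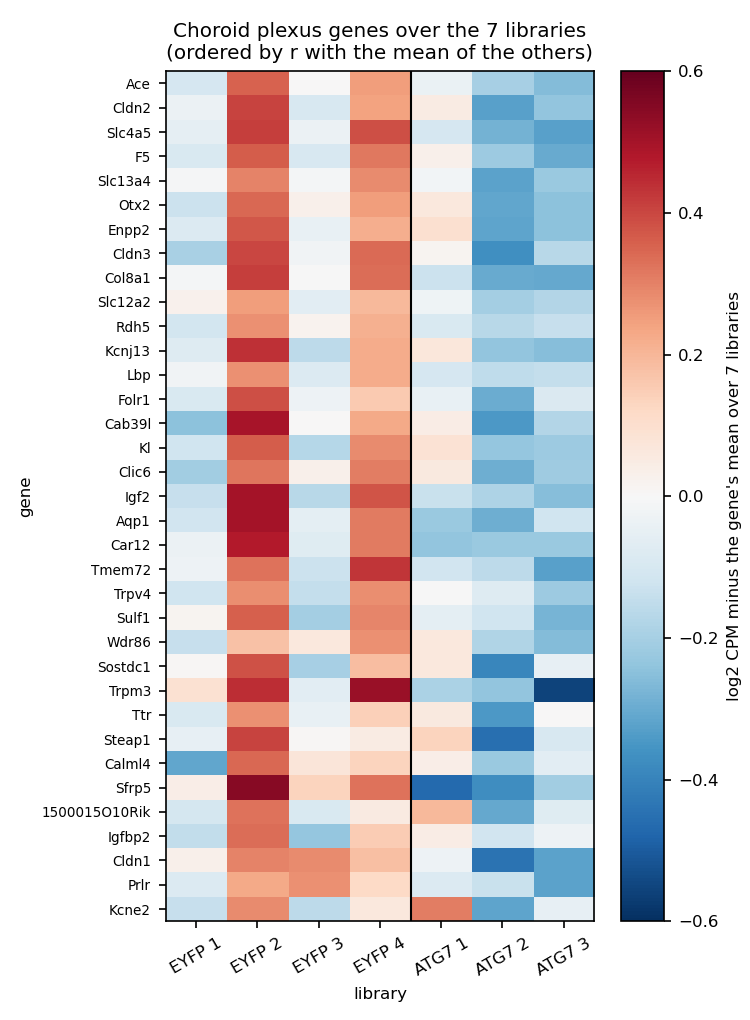
Log2 CPM of each choroid plexus gene minus its mean over the 7 libraries, with genes ordered by Pearson r with the mean of the others. EYFP 2 and EYFP 4 are above the mean for all 35 genes, and ATG7 2 is below it. ATG7 3 is below the mean except for Ttr, which is almost at its mean on this log scale.

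Likeness was measured by Pearson r of log2 CPM over the 7 libraries, as a description, since all genes share library totals. Each gene was set against the mean of the other 34, and the median r was 0.95, where other tested genes had a median r of -0.07 with the mean of the 35. An r of at least 0.8 was found for 32 of the 35 and for 7.97% of 19164 other tested genes. Ace (0.98), Cldn2 (0.98) and Slc4a5 (0.98) had the highest r. The lowest were Kcne2 (0.69), Prlr (0.70) and Cldn1 (0.796), and these were the 3 below 0.8. After each group's mean was removed, r was 0.87 for Kcne2, 0.61 for Cldn1 and 0.40 for Prlr. All 595 pairs of genes had a positive r, from 0.25 (Prlr with Kcne2) to 0.994 (Slc4a5 with Col8a1).

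**Figure D5:**
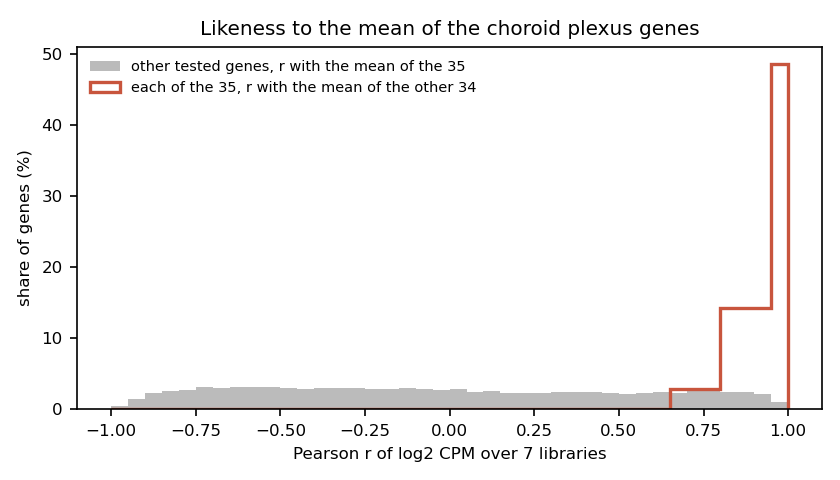
Share of genes (%) by Pearson r of log2 CPM over 7 libraries: each of the 35 choroid plexus genes with the mean of the other 34 (line) and all other tested genes with the mean of the 35 (grey). The 35 lie at the right, with a median of 0.95, and the others spread around -0.07.

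Against Ttr alone, all 34 other genes had a positive r, and 18 passed after Benjamini-Hochberg adjustment of exact permutation p-values over the 34, while 3 passed by Spearman's rho. Of 19198 tested genes other than Ttr, 46.8% had a positive r with it. An unadjusted exact permutation p under 0.05 with a positive r was found for 25 of the 34, and for 8.91% of all those genes. With adjustment over all of them 0 of the 34 passed, and the lowest adjusted p of the exact permutation test was 0.252. Enpp2 had r = 0.89 (exact permutation p = 0.00635, two-sided, adjusted 0.0209 over 34) and rho = 0.89 (exact permutation p = 0.0123, adjusted 0.0523). Cab39l had r = 0.91 (exact permutation p = 0.00456, two-sided, adjusted 0.0209 over 34) and rho = 0.96 (exact permutation p = 0.00278, adjusted 0.0315). Prlr had the lowest r of the 34, with r = 0.46 (exact permutation p = 0.310, two-sided, adjusted 0.310 over 34) and rho = 0.46 (exact permutation p = 0.302, adjusted 0.312). By rho Car12 was lowest, at 0.39 (exact permutation p = 0.396, adjusted 0.396). When the libraries farthest from the median of Ttr, ATG7 2 and EYFP 2, were left out, r remained positive for all 34 but ranged from 0.0699 (Cldn1) to 0.93 (Igfbp2), with 0.72 for Enpp2, 0.86 for Cab39l and 0.0970 for Prlr. The number that passed by r was 0 without EYFP 2, 0 without ATG7 2, 1 without EYFP 4 and 11 without EYFP 3, against 18 with all libraries. Leaving out another library could also raise the number. Each omission leaves fewer libraries to test, and the cause of these shifts was not tested. Within the groups, r on deviations from the group means lay between 0.18 (Prlr) and 0.94 (Folr1), with a median of 0.79. Each group alone has too few libraries for a tested correlation.

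Genes also differed in how far they moved relative to the rest of the list. Each gene's log2 CPM minus the mean of the 35 in the same library was averaged by group, and the difference of ATG7 minus EYFP was taken. It was lowest for Sfrp5 (-0.33), Trpm3 (-0.29) and Cldn1 (-0.18), and highest for Kcne2 (0.25), Igfbp2 (0.22) and 1500015O10Rik (0.17). For Ttr it was 0.12 and for Enpp2 0.01. These differences describe unequal change within the list and were not tested.

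A second list of 22 genes of the choroid plexus was written from general knowledge. Earlier results of these data were known by then, so the list is not an independent check. Its mean log2 CPM was highest in EYFP 2 and EYFP 4 and lowest in ATG7 2 and ATG7 3, as for the 35. All 22 passed the filter, and 21 had a log2 fold change below 0, as did 50.8% of all genes tested. With edgeR 0 of the 22 passed (0.755% of all genes tested), and the median was -0.25 (-0.30 without EYFP 3, where again 0 passed). An unadjusted p under 0.05 was found for 8 of the 22 (12% of all genes tested). DESeq2 passed 2, Car14 and Slc16a8 (585 of all 19199 genes tested). Among the most abundant by counts, Atp1b1, a subunit of the sodium pump, had means of 569.9 ± 67.7 CPM for EYFP (SD, n = 4) against 481 ± 109.6 CPM for ATG7 (SD, n = 3), and Slc4a10, a bicarbonate transporter, of 592 ± 104 CPM for EYFP (SD, n = 4) against 444 ± 67.6 CPM for ATG7 (SD, n = 3). Their edgeR adjusted p was 0.558 and 0.269. An r of at least 0.8 with the mean of the 35 genes was found for 17 of the 22, and for 7.97% of the 19164 tested genes outside the 35. Lrp2, an endocytic receptor gene, was the 1 gene with a positive fold change (0.22), and its mean was 6.04 CPM.

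Of tested genes outside the list of 35 with a mean of at least 1 CPM, the 10 with the highest r with the mean of the 35 were Slc25a12, Tctn2, Stra6, Tmem38a, Cul4b, Pja2, Slc2a4, Hdhd2, Pomgnt1 and Clip3. Their r over the 7 libraries lay between 0.987 and 0.995. Stra6, the membrane receptor for retinol-binding protein, had means of 74.3 ± 9.86 CPM for EYFP (SD, n = 4) against 60.4 ± 4.67 CPM for ATG7 (SD, n = 3). The mitochondrial carrier gene Slc25a12 had means of 95.3 ± 10.6 CPM for EYFP (SD, n = 4) against 82.3 ± 4.63 CPM for ATG7 (SD, n = 3). The adjusted p of the 10 ranged from 0.235 to 0.514 (edgeR).

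Other cells of the ventricle and its coverings were measured with marker lists. The 12 ependymal markers (among them Foxj1, which cilia-bearing choroid epithelium also expresses) summed to 259 to 345 CPM in EYFP and 259.9 to 302 CPM in ATG7, and the 12 leptomeningeal fibroblast markers to 134 to 171 CPM in EYFP and 119 to 166 CPM in ATG7. These sums overlapped between the groups. The ependymal list was highest in EYFP 3 by sum and by mean log2 CPM, unlike the choroid plexus genes. For the fibroblast list the order depended on the measure. Its mean log2 CPM was highest in EYFP 1, but its sum was highest in EYFP 2 and lowest in ATG7 2, as for the choroid plexus genes. Markers of border macrophages, some of which sit on the choroid plexus, summed to 1375 to 1709 CPM in EYFP and 1432 to 1509.5 CPM in ATG7, and endothelial markers to 636 to 976 CPM in EYFP and 685 to 1318 CPM in ATG7. The 9 neuronal markers summed to 24.3 to 47.9 CPM in EYFP and 29.7 to 31.6 CPM in ATG7, the astrocyte markers to 386 to 776 CPM in EYFP and 453 to 557 CPM in ATG7 and the oligodendrocyte markers to 226 to 495 CPM in EYFP and 249 to 357 CPM in ATG7. Of all these markers only Gad2 was at 0 counts in a library. The neuronal list had a median log2 fold change of -0.50 (7 of 8 tested genes below 0), and 0 had an edgeR unadjusted p under 0.05. Its summed CPM was 47.9 in EYFP 1 but 24.3, 25.2 and 26.1 in EYFP 2 to 4. The ATG7 sums, 31.4, 31.6 and 29.7 CPM, lay below EYFP 1 and above the other EYFP libraries. The least abundant neuronal marker had a mean of 0.0960 CPM. The median log2 fold change was -0.20 for oligodendrocytes (6 of 7 below 0), -0.16 for astrocytes (4 of 7), -0.16 for ependymal cells (10 of 12) and -0.10 for fibroblasts (6 of 12). It was -0.00334 for border macrophages (4 of 8) and 0.22 for endothelial cells (1 of 8). The part of these cells in the values of the choroid plexus genes was not tested.

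The 10 microglial markers summed to 21276 to 25557 CPM in EYFP and 21258 to 26047 CPM in ATG7. Their mean log2 CPM was 10.45, 10.31, 10.53 and 10.32 in EYFP and 10.29, 10.55 and 10.59 in ATG7. The 3 libraries with the largest choroid plexus share, EYFP 2, EYFP 4 and ATG7 1, were thus the 3 lowest in microglial markers. The part of the microglial content in those values was not tested.

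Because these genes varied together and Otx2 is among them, promoters were searched for TAATCC, the core sequence bound by Otx factors. RefSeq promoter windows (GRCm38.p6, 250 bases before to 50 after the start) were found for 26 of the 35 genes, as 39 windows. TAATCC on either strand occurred in 3 of these windows (7.69%), for Ace, Igf2 and Otx2, and in 7.06% of all 32817 windows. By gene it was 3 of the 26 (11.5%), against 8.14% of all 26994 genes with a window. The share of windows was thus close to the background, and a match is a description of letters only. Ace had the highest r with the other genes, and another Ace window, at chr11:105974939-105975238, holds no TAATCC. The Ace window with the motif (capitals), on its own strand, is shown up to the first annotated exon (RefSeq, GRCm38.p6, chr11:105967698-105967944, plus strand, 247 bases).
Ace upstream: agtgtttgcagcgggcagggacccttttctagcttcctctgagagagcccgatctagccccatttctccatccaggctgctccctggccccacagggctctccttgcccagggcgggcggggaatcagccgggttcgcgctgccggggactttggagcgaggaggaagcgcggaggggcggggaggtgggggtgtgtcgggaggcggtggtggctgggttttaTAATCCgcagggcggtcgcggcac

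Some of the 35 genes share exon bases with another gene, so their counts are less certain. Kcnj13 overlaps Gigyf2 and Cab39l overlaps Cdadc1 on the opposite strand, and Rdh5 overlaps Bloc1s1 on its own strand. Igf2 shares 3596 of its 5723 exon bases with Gm49394 on its own strand, and Gm49394 was listed at 0 counts. Sfrp5, Cldn1 and Ttr share exon bases with no other annotated gene.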

How the data were processed

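Gene expression was measured by RNA sequencing in 7 libraries of bead-enriched hippocampal microglia, 4 EYFP and 3 ATG7, grouped by their titles. The authors deposited raw counts per Ensembl gene. The submitters' processing notes list fastp 0.20.1, HISAT2 2.0.5 and featureCounts and the mm10 (GRCm38) build. The annotation, strand setting and handling of shared reads are not given in the sources used here. The 37 mitochondrial genes were listed at 0 in every library, and 0 columns were left unmatched.

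Symbols, coordinates and merged exon lengths came from GENCODE M21 (GRCm38), which matched 55141 of 55401 identifiers and left 260 unmatched. ATG7 was compared with EYFP by the quasi-likelihood test of edgeR 4.0.16 (R 4.3.3; TMM factors, filterByExpr, robust fit, no covariate) over all 19199 genes that passed the filter, with Benjamini-Hochberg adjustment over all of them. CPM used TMM factors, and log2 CPM a prior count of 2. Standard errors were the absolute log2 fold change over the square root of F. DESeq2 1.42.0, other scalings and filters, the replicate block and leaving out each library were alternatives. Correlations with Ttr used exact permutation of 5040 orders, adjusted over the 34 other genes and, added after seeing the data, over all genes tested. Same-group libraries differed by a chi-square of 21.0 to 45.4 per degree of freedom, so each was kept as a replicate. A floor of 3 counts was 0.0543 to 0.0835 CPM, which covers counting error only. On simulated data, 68.0% of 197 genes changed 2-fold, among 18889 tested, were called, and 8.22% of calls were unchanged genes.

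The genes and lists were chosen with earlier results of these data known. Values per library were given for the 10 genes with the highest mean CPM, any with an adjusted p under 0.05, and the 3 with the largest absolute log2 fold change. Outside the list, the 10 genes of highest r with its mean were named. From the second choroid plexus list, genes that passed and the 3 of highest mean CPM were to be named, of which 1 is not reported here. Other genes named were chosen after their values were seen.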

Additional observations from a re-analysis of the deposited data

How the results depend on the processing

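Of all genes, 145 differed (132 higher, 13 lower). The number was 297 with no filter (234 higher, 63 lower), 585 with DESeq2 (407 higher, 178 lower), and 28 to 277 with 1 library left out (277 without EYFP 1, 94 without EYFP 2, 164 without EYFP 3, 30 without EYFP 4, 28 without ATG7 2, 30 without ATG7 3). Of the 35 choroid plexus genes, the count that passed was 3 with no filter, 6 with DESeq2 and 0 to 2 with 1 library left out (2 without EYFP 1 and 0 without EYFP 2, EYFP 4, ATG7 2 or ATG7 3), each lower in ATG7. For the second choroid plexus list it was 1, 2 and 0 to 1. The number of genes that varied with Ttr was 0 to 24 with 1 library left out, and 0 with adjustment over all genes tested, chosen after seeing the data. The cause of these shifts was not tested.

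With the replicate number as a block, 0 of all genes and 0 of the 35 passed, and Sfrp5 had a log2 fold change of -0.59 (edgeR adjusted p = 0.293). Deviations of same-numbered libraries correlated at -0.0609, -0.182 and 0.0664, and EYFP 1 correlated best with ATG7 2 (0.215), so the numbers were not taken to pair the libraries.

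The median log2 fold change of the 35 genes stayed below 0 in all settings, from -0.38 to -0.20. Single genes changed sign with 1 library left out: Igfbp2 without EYFP 2 (-0.17 to 0.0273), 1500015O10Rik without ATG7 2 (-0.24 to 0.0107), and Kcne2 without EYFP 2 (0.0725), ATG7 2 (0.115) or ATG7 3 (0.000121; range -0.20 to 0.115). Leaving all 35 out of the scaling, chosen after seeing the data, gave a median of -0.29 and passed 1 of the 35.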

Other observations

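Length moved with the size of the difference across these genes. Over the 35, merged exon length and log2 fold change had a Spearman rho of -0.46, across genes, which are not independent replicates. Over 10643 tested genes at least as abundant as the lowest of the 35 it was -0.0446. The 8 shortest (902 to 1847 bases) had a median log2 fold change of -0.19 and the 8 longest (7597 to 24437 bases) of -0.34. The pattern was seen in the data first, and its part in the results was not tested.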
